A study of Mus musculus with 21 samples.

Results

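The granins and the enzymes that process peptides in dense-core vesicles were followed through the deposited expression tables of mouse cortical neurons. The genes were taken by symbol, and all 10 were found in each of the 4 tables, out of 19399 genes that all 4 tables share. They are 6 granins and related vesicle proteins (Vgf, Scg2, Scg3, Scg5, Chga and Chgb), 3 processing enzymes (Pcsk2, Cpe and Pam) and Pcsk1n, which encodes an inhibitor of prohormone cleavage. RNA came from primary cortical neurons of newborn pups, either wildtype (WT) or carrying hTau P301S, a mutant human tau whose cDNA is driven by a prion promoter (Tau). The transgenic cultures had received 3 μg/mL of pre-formed tau fibrils on day 7 and were kept for 18 days more. The paper's methods describe seeding of the transgenic neurons, while its results speak of both WT and P301S neurons after seeding. If the WT cultures received no fibrils, the transgene and the fibrils cannot be told apart in any Tau to WT difference. Cultures were given the adiponectin receptor agonist AdipoRon, or DMSO as vehicle, for 24 h. The labels disagree on the dose, with 10 μM given as a sample characteristic but 10 mM in the protocol text. There were 5 cultures of Tau neurons with DMSO, 5 of Tau with AdipoRon, 5 of WT with DMSO and 6 of WT with AdipoRon, and all had been exposed to cytosine arabinoside to remove dividing glia. Per the study's reporting summary, each animal gave samples to both treatments, so cultures with DMSO and with AdipoRon share animals.

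Neurons package peptides in dense-core vesicles, which bud from the trans-Golgi network and release their content when the cell is stimulated. Granins are acidic, aggregating proteins that help to load these vesicles and are themselves cut into peptides. Precursors are cleaved at pairs of basic residues by the convertases PC1/3 (Pcsk1) and PC2 (Pcsk2), carboxypeptidase E (Cpe) trims the basic residues left behind, and the monooxygenase encoded by Pam amidates the end of many peptides.

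Each table gives every gene a single mean level in log2 CPM (a gene's reads scaled to a common library size), the authors' mean over the cultures of a pair of groups. The mean over 10 cultures with DMSO (Tau and WT) and the mean over 11 with AdipoRon (Tau and WT) show the effect of AdipoRon with the genotypes pooled. The mean over 10 Tau cultures and the mean over 11 WT cultures compare the genotypes with the treatments pooled, although AdipoRon was given to 5 of the 10 Tau and to 6 of the 11 WT cultures. No value per culture was used, so the depth of each library and the spread between cultures are unknown, no difference was tested, and none can be said to exceed the replicate error. In place of a test, each difference was read against all genes and against a limit of 0.5 on the log2 scale (1.41-fold). How the tables were scaled is not stated, but the summed CPM of the DMSO and AdipoRon cultures nearly matched that of the Tau and WT cultures. The log2 ratio of these totals had an SD of 0.0037 over the 9710 genes with a mean log2 CPM over 4, and was -0.015 for Vgf.

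Vgf was the member whose level differed most with AdipoRon. It encodes a granin-like precursor of several secreted peptides. Its authors' mean was 559.8 CPM in the DMSO cultures and 92.4 CPM in the AdipoRon cultures, a 6.06-fold lower level (difference in mean log2 CPM, -2.60). In the Tau and WT means, which each mix both treatments, it stood at 334 and 304 CPM. Among the 9710 genes with a mean log2 CPM over 4, Vgf had the difference ranked 5 from the lowest. Of the CPM summed over the 10 genes, not scaled for length, 15.0% were those of Vgf in the DMSO cultures and 2.82% in the AdipoRon cultures, while the sum itself was 3730 and 3275 CPM. RNA was bulk, so fewer cells of a type and less RNA per cell cannot be told apart.

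Scg2, the precursor of secretoneurin, was the other member past the limit. Its mean was 179.7 CPM with DMSO and 97.4 CPM with AdipoRon, or 1.84-fold lower (-0.88 on the log2 scale). It stood at rank 105 of the 9710 genes from the lowest. In the Tau and WT means Scg2 was at 142 and 133 CPM.

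The remaining granins stayed within the limit, with differences on both sides of 0. Chgb, which encodes chromogranin B, was at 388 CPM with DMSO and 498 CPM with AdipoRon (0.36 on the log2 scale). Its rank was 598 from the highest of the 9710 genes. Chga, which encodes chromogranin A, had nearly equal means of 167 and 162 CPM (-0.04). Scg3 encodes a granin that binds cholesterol-rich vesicle membranes and chromogranin A, and it had means of 259 CPM with DMSO and 231 CPM with AdipoRon (-0.17). Scg5 encodes 7B2, the chaperone that proPC2 needs to mature, and its means were 122.5 and 107.7 CPM (-0.19). From Vgf to Chgb the 6 granins therefore covered a range from -2.60 to 0.36.

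**Figure D1:**
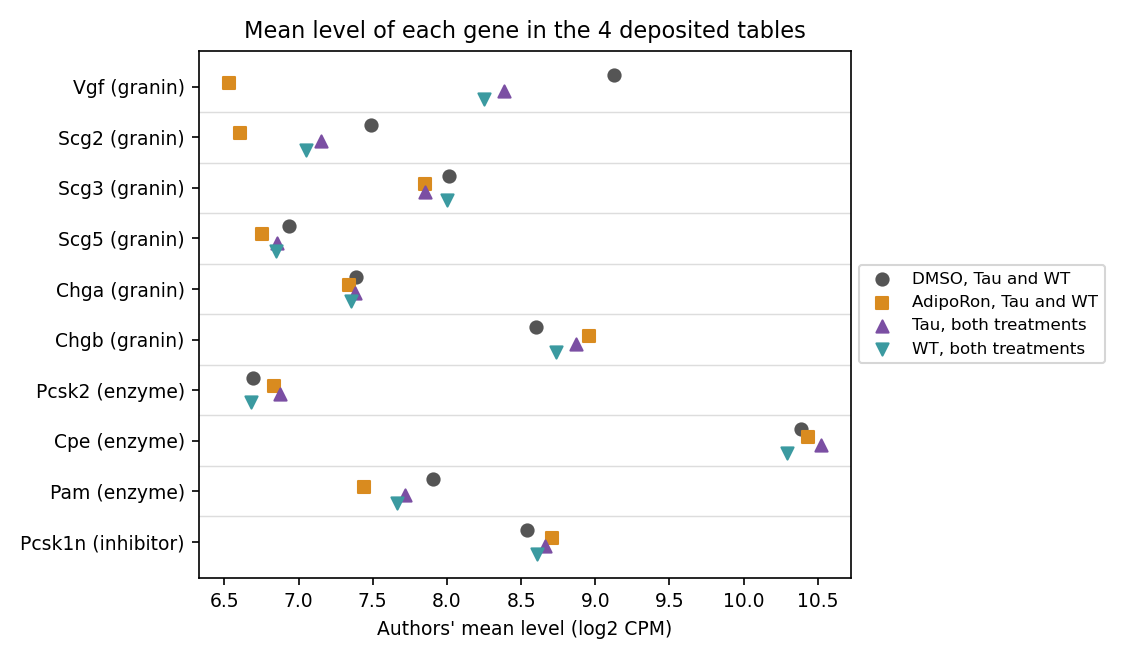
Authors' mean level of each gene (x axis, log2 CPM) in the 4 deposited tables: DMSO cultures, AdipoRon cultures, Tau cultures and WT cultures, with no error bars since no value per culture was used. The AdipoRon mean of Vgf (6.53) lies far to the left of its DMSO mean (9.13), that of Scg2 (6.61) less far from 7.49, and the other genes have closely placed marks.

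Among the enzymes, Pam came nearest to the limit. Its mean was 240.3 CPM with DMSO and 173.9 CPM with AdipoRon, or 1.38-fold lower (-0.47), at rank 412 of 9710 from the lowest. Pcsk2 had means of 103 and 114 CPM (0.14). Cpe, the most abundant member per kilobase with its longest and mean transcript lengths, had means of 1337 and 1381 CPM (0.05). Pcsk1n, which encodes proSAAS, the inhibitor of PC1/3, was at 373 CPM with DMSO and 418 CPM with AdipoRon (0.16). None of the 3 enzymes, nor the inhibitor, passed the limit.

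In all, 2 of the 10 members were lower with AdipoRon by the limit and 0 were higher. Over the 19399 genes, 6.3% were lower and 4.4% were higher by the same limit, and over the 9710 genes with a mean log2 CPM over 4, as all members have, 3.8% and 2.46%. The median difference of the members was -0.11, against 0.03 over each of these sets of genes. Among the 9710 genes, 95% of differences lay between -0.63 and 0.50. Vgf and Scg2 fell outside this range, and the other 8 members inside it.

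**Figure D2:**
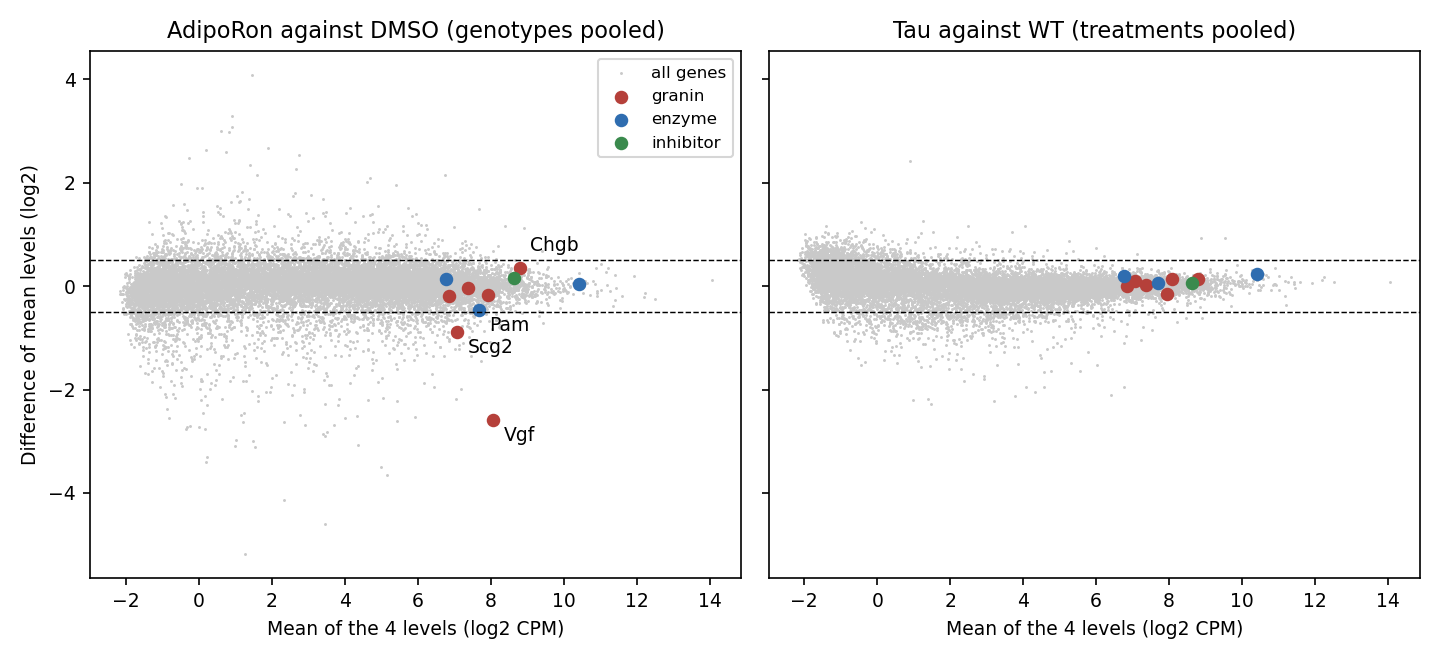
Difference of mean levels (y axis, log2) against the mean of the 4 levels (x axis, log2 CPM) for AdipoRon against DMSO (left) and Tau against WT (right), with all genes in grey, granins in red, enzymes in blue and the inhibitor in green. Dashed lines mark the limit of 0.5, which on the left Vgf (-2.60) and Scg2 (-0.88) pass and on the right no member passes.

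Although no table gives a mean for a single group, the 4 means together limit what the response within each genotype can have been, because no group can have a level under 0 CPM. For Vgf, the AdipoRon level was at most 0.437 of the DMSO level in Tau neurons (at least 2.29-fold lower) and at most 0.375 in WT neurons (at least 2.66-fold lower). Vgf was therefore lower with AdipoRon within each genotype, as far as group means go. Vgf was the only member limited in this way, and among the 9710 genes 0.124% (12 genes) were limited to a fall of 0.5 or more in both genotypes. For Scg2 the means allowed log2 ratios of up to 1.61 in Tau and up to 1.25 in WT neurons. For Pam they allowed up to 3.34 and 2.40. For Scg2 and Pam the means therefore do not give the direction within a single genotype. The authors' own fold changes within each genotype bear on that direction but were not used. These limits treat the authors' means as arithmetic means over cultures and carry no error of their own.

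**Figure D3:**
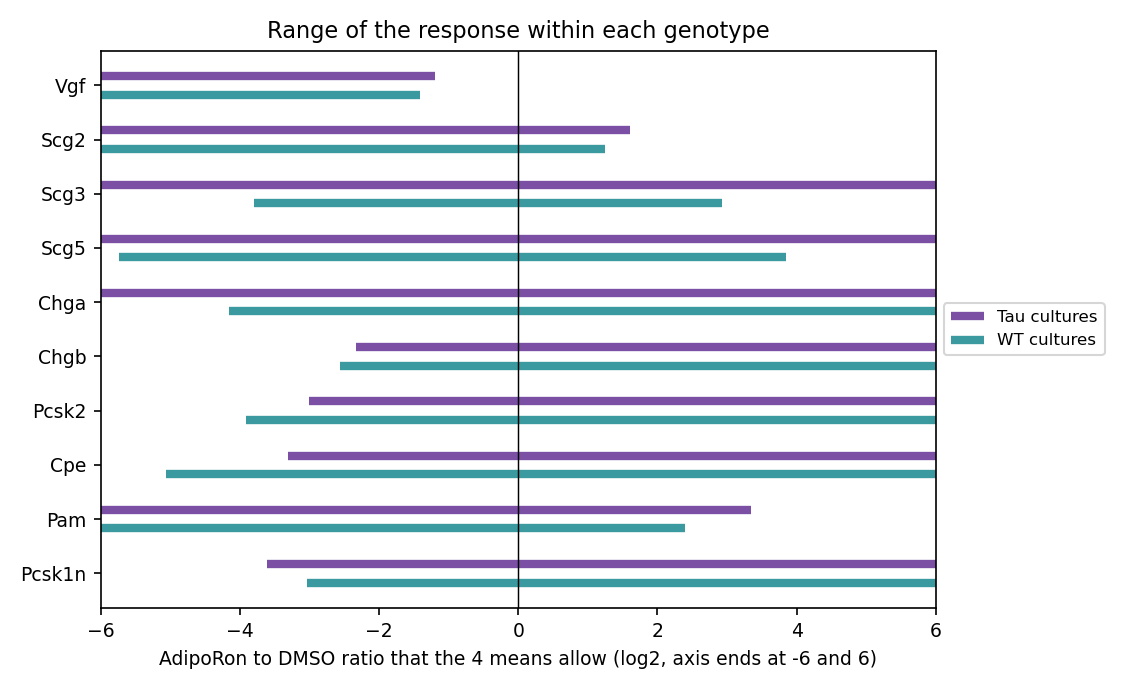
Range of log2 AdipoRon to DMSO ratios (x axis, cut at -6 and 6) that the 4 means allow for each gene within Tau cultures and within WT cultures. Only the bars of Vgf end below 0, at -1.19 in Tau and -1.41 in WT cultures.

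The promoters of the granins were compared next, for a motif of activity-dependent genes. The cAMP response element (CRE), the 8-base palindrome TGACGTCA, is a site for the CREB family of activity-dependent factors. RefSeq promoters (GRCm38.p6) matched 8 of the 10 members, with no entry for Vgf or Cpe, and the 250 bases before the annotated start were searched on both strands. The palindrome was found in 2 members, Scg2 and Chgb. It was in 1.55% of all 32851 promoters, and counted by gene in 2.62% of the 14477 genes of the tables with a promoter and in 3.17% of the 7738 with a mean log2 CPM over 4. The 5-base core TGACG, which the palindrome contains, was found in 6 of the 8 (Scg2, Chgb, Chga, Scg3, Scg5 and Pcsk2) and, by gene, in 26.9% and 31.8% of these sets. The AP-1 letters TGACTCA were found in Pcsk1n alone among the members and, by gene, in 4.28% and 3.68%. The 110 bases before the start are shown for Scg2 and Chgb, which hold the palindrome, and for Chga, which does not. The palindrome, or in Chga the core, is in capitals. In Chga the core is followed by TAA in place of TCA. Scg2 lies at chr1:79440027-79440136 on the minus strand, Chgb at chr2:132781532-132781641 on the plus strand and Chga at chr12:102554831-102554940 on the plus strand.
Scg2: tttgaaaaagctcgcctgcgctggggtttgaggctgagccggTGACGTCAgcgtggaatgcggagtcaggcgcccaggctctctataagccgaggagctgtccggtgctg
Chgb: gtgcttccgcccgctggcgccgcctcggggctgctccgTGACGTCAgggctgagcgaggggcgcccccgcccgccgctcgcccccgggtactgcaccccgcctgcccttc
Chga: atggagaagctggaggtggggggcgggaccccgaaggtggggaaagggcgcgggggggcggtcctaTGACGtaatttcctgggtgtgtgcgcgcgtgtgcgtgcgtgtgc

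The palindrome begins 68 bases before the start in Scg2 and 72 bases before it in Chgb. Of 29 further genes of the secretory pathway, 1 of the 19 with a promoter held the palindrome, the convertase gene Pcsk1. Among the peptide precursors it was held by 2 of 10 (Cartpt and Sst). With AdipoRon, 3.17% of all genes with the palindrome were lower by the limit, against 6.21% of those without it. With a mean log2 CPM over 4 these shares were 1.63% and 3.71%. They were 0% and 75% among the precursors. Among the members, 1 of the 2 holders was lower (50%, Scg2 but not Chgb), against 0% of those without the palindrome. Vgf, the member with the lowest difference, had no promoter entry and is in neither share. In the pathway list the only holder, Pcsk1, was lower (100%), against 5.56% of those without it, which is 1 gene. Holders this few give no direction. A match of letters is not a measurement of binding, and the part of these letters in the expression values was not tested.

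The other genes of the regulated secretory pathway were mostly level with AdipoRon. Of 29 such genes, 3 were lower by the limit and 0 higher, against 6.3% and 4.4% of all genes, with a median difference of 0.01. With a mean log2 CPM over 4, 2 of 20 were lower, against 3.8% of genes. At 4 or under, 1 of 9 was lower, against 8.81% of genes at that level. Pcsk1, which encodes the convertase PC1/3, was the lowest of the list, at 47.7 CPM with DMSO and 5.68 CPM with AdipoRon, 8.40-fold lower (-3.07). The 4 means limit it to at least 3.66-fold lower in Tau and at least 3.57-fold lower in WT neurons. Pcsk1 and Pcsk2, the main convertases of the pathway, thus differed in their AdipoRon difference (-3.07 against 0.14). Cadps2, which encodes a priming factor of dense-core vesicles, was at 26.6 and 10.5 CPM (-1.34), while its paralog Cadps was at 319 and 260.2 CPM (-0.29). Insm1, a transcription factor of neuroendocrine cells, was at 8.35 and 5.75 CPM (-0.54). The highest differences of the list were those of Cyb561 (0.37), which supplies electrons to the Pam enzyme across the vesicle membrane, Ctsl (0.30), a lysosomal and secretory vesicle protease, and Hid1 (0.25), which acts in the formation of dense-core vesicles.

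Of 13 peptide precursors that these vesicles carry and that were present in all 4 tables, 9 were lower with AdipoRon by the limit and 2 higher, against 6.3% and 4.4% of all genes. Their median difference was -1.19. The list counts Bdnf, a neurotrophin, among the 9 lower (-1.62). The list was drawn up with earlier results of these data known, and the paper names Adcyap1 among the top AdipoRon-responsive genes. These shares therefore describe the list and are no independent support. With a mean log2 CPM over 4, 5 of 6 precursors were lower, Bdnf among them, against 3.8% of genes. At 4 or under, 4 of 7 were lower and 2 higher, against 8.81% and 6.34% of genes at that level. Adcyap1 (-4.59), Crh (-3.11), Pnoc (-2.69) and Vip (-2.20) were limited to a fall of 0.5 or more in both genotypes, as Vgf was. Of all 19399 genes, 50 were limited in this way. Sst, at 25.9 CPM with DMSO and 23.7 CPM with AdipoRon, was within the limit (-0.13), and the 2 higher precursors, Gal and Pdyn, had no mean above 1.15 CPM.

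**Figure D4:**
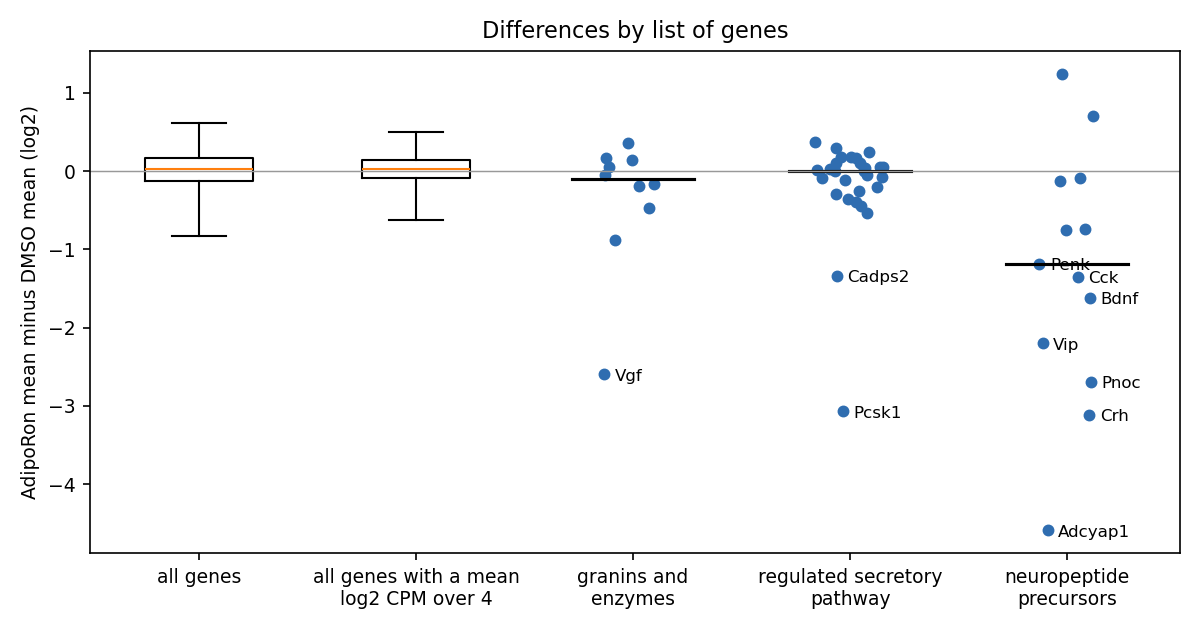
AdipoRon mean minus DMSO mean (y axis, log2) for all 19399 genes and the 9710 with a mean log2 CPM over 4 (boxes, quartiles and median; whiskers, the middle 95%) and for each gene of the granins and enzymes, the regulated secretory pathway and the neuropeptide precursors, with the median as a bar. Medians are -0.11, 0.01 and -1.19 for these lists, and Vgf (-2.60) and Pcsk1 (-3.07) stand below the rest of theirs. The precursor list includes the neurotrophin Bdnf.

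Between Tau and WT neurons, no member differed by the limit. Over all 19399 genes 7.01% did, and 1.38% of the 9710 genes with a mean log2 CPM over 4. Cpe had the highest difference, with authors' means of 1471 CPM in Tau and 1255 CPM in WT cultures (0.23 on the log2 scale). Pcsk2 followed at 117.2 and 102.4 CPM (0.20), then Vgf (0.14), Chgb (0.13) and Scg2 (0.10). Pcsk1n (0.05), Pam (0.05), Chga (0.03) and Scg5 (0.01) were nearly level. Scg3 was the member with a difference below 0, at 231 CPM in Tau and 256 CPM in WT cultures (-0.15). The unequal share of AdipoRon cultures bears on these values. If both genotypes had the pooled DMSO and AdipoRon levels, that share alone would give a Tau minus WT difference of 0.10 for Vgf, 0.04 for Scg2 and 0.02 for Pam, and between -0.02 and 0.01 for the other members. Less this part, the difference was 0.04 for Vgf and 0.06 for Scg2, and it stayed 0.23 for Cpe and 0.20 for Pcsk2. The median over the members was 0.08, or 0.05 less this part, against -0.01 over the 9710 genes in either case. A difference above 0, none past the limit, was found for 9 of the 10 members, for 49.7% of all genes and for 43.2% of the 9710. It was also found for 19 of the 29 other pathway genes, 9 of the 13 peptide precursors and 6 of 6 neuronal markers. Of the interneuron markers 1 of 3 lay above 0, and of the astrocyte markers 2 of 4. A lean above 0 was therefore not particular to the members. In the regulated secretory pathway list 2 of 29 genes were lower in Tau by the limit, Baiap3 (-0.80) and Pcsk6 (-0.51), and 0 were higher. Of all genes, 3.57% were lower and 3.43% higher.

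Cell type markers moved with these comparisons too. All 6 neuronal markers (Tubb3, Map2, Rbfox3, Snap25, Syt1 and Stmn2) were present, with a summed level of 11.6 in log2 CPM with DMSO and 11.4 with AdipoRon, and their AdipoRon differences ran from -0.29 to -0.12. The 4 astrocyte markers had summed levels of 11.7 and 11.8, so astrocytic RNA was present in the cultures labelled as neurons. With AdipoRon they went both ways, with Gfap (0.34) and Aldh1l1 (0.42) higher and Aqp4 (-0.23) and Slc1a3 (-0.24) lower. Of the excitatory neuron markers, Slc17a6 was lower with AdipoRon by the limit (-0.53), and Camk2a (-0.15) and Slc17a7 (0.11) were within it. The 3 interneuron markers (Gad1, Gad2 and Slc32a1) had AdipoRon differences of -0.28 to -0.06. In Tau against WT cultures the 6 neuronal markers differed by 0.02 to 0.21. Slc17a7 (0.33), Camk2a (0.31) and Slc17a6 (0.09) were higher in Tau, and the interneuron markers differed by -0.05 to 0.02. The 4 microglial markers had a summed level of 5.53 in Tau and 6.50 in WT cultures, with 3 of the 4 lower in Tau by the limit, and the 5 oligodendrocyte lineage markers 8.81 and 9.51, with 3 of 5 lower. With AdipoRon these sums were 6.00 for microglia and 9.20 for the oligodendrocyte lineage, against 6.25 and 9.25 with DMSO, and Pdgfra was lower by the limit (-0.57). Of 5 endocrine markers 3 were in all 4 tables (not those of insulin and glucagon), with a summed level of 3.37 with DMSO and 2.63 with AdipoRon. Of these, Th (7.77 and 4.43 CPM, -0.81) and Dbh (0.961 and 0.337 CPM, -1.51), enzymes of catecholamine synthesis, were lower by the limit and Pomc (-0.14) was not. The part of cell composition in the values of the granins and enzymes was not tested.

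Levels of different genes were compared per kilobase of the longest protein-coding transcript (GENCODE vM39), as the mean of the 4 log2 CPM values minus log2 of the length. Cpe stood highest, at 9.04, followed by Pcsk1n (7.49), Chgb (6.82), Vgf (6.57) and Chga (6.21). Scg2 (5.74), Scg5 (5.49), Pam (5.41) and Scg3 (5.34) came next, and Pcsk2 (4.16) was the lowest. Pcsk2 was therefore the member with the least RNA per kilobase of the longest transcript, below Scg5, which encodes the chaperone 7B2. With the shortest transcript Scg2 was the lowest. No protein was measured. Without the spread between cultures, neighbours in this order cannot be told apart from ties.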

How the data were processed

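According to the paper's methods, the authors trimmed reads, aligned them to mm10 with STAR, quantified them with RSEM and fitted the generalized linear model of edgeR (GRCm39 stands elsewhere in the paper, and the deposited tables are named after Rsubread). The authors deposited, for each of 4 comparisons, the mean level of a gene as log2 CPM, with library scaling and low-count filters not stated. The other columns hold the authors' own fold changes, likelihood ratios, p-values and false discovery rates, which were not used. The groups behind each mean follow from the tables' names and the sample labels (5, 5, 5 and 6 cultures).

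Differences of log2 CPM (AdipoRon minus DMSO, Tau minus WT) were computed, and the range of group means that 4 non-negative means allow. That range was taken as the wider of 2 routes. The tools were Python 3.11.15, numpy 2.4.6 and pandas 2.3.3. The code was also run on simulated cultures with equal folds in both genotypes. Simulated levels were exact arithmetic means, so the ranges held by construction, and the run checked the code and not the authors' averaging. No model was fitted. Alternatives were median centring, log2(CPM + 1), genes with a mean log2 CPM over 4, and limits of 0.3 and 1. The members and lists were chosen with earlier results of these data known, and the ranges, the promoter motifs and the mean transcript length after seeing the data. All members were named, and of the pathway list those past the limit and the 3 highest. Other genes named were chosen after their values were seen.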

Additional observations from a re-analysis of the deposited data

How the results depend on the processing

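No replicate could be left out, since each value is a mean over cultures. No paired analysis was possible because no value per culture was used, although per the study's reporting summary cultures of both treatments share animals. The 2 members lower with AdipoRon stayed 2 with median centring, with log2(CPM + 1) and among genes with a mean log2 CPM over 4. With a limit of 1, 1 member was lower (Vgf), against 1.74% of all genes. With a limit of 0.3, 1 member was higher (Chgb) and 3 were lower, against 12.3% and 12.2% of all genes. No member changed sign with centring (median of all genes 0.03 for AdipoRon). With log2(CPM + 1), 1.94% of genes were lower and 0.284% higher in Tau, in place of 3.57% and 3.43%. With AdipoRon these shares were 3.63% and 2.3%. The limit of Vgf within a genotype lay between -1.39 and -1.19 in Tau and between -1.46 and -1.29 in WT cultures over the routes and weights tried after seeing the data. In the order of levels per kilobase, 9 members changed place with the shortest transcript, and 3 with the mean length. Taking out the part of the Tau to WT differences that unequal shares of AdipoRon cultures give, an alternative chosen after seeing the data, left 0 members past the limit and moved Vgf from 0.14 to 0.04.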
